A study of Sus scrofa with 20 samples.

Results

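Enzymes that add or remove methyl and acetyl groups on histones and other proteins were examined in the amygdala of pigs with contrasting coping behavior, beginning with the methyltransferase gene SMYD5. Members were chosen by name: probe sets whose gene symbol begins with SMYD, SETD, KDM, HDAC, KAT or SIRT followed by a digit, and whose mean over 20 arrays reached the median of all probe-set means, 5.18 on the log2 scale. The array held 80 such probe sets of 41 genes, and 66 probe sets of 39 genes reached that level, out of 23860 probe sets and 10255 genes tested in all. The amygdala is a forebrain region that takes part in fear and stress responses. It was taken at slaughter from 20 German Landrace pigs, 10 labelled low-reactive (LR) and 10 labelled high-reactive (HR), with 1 array of total RNA for each animal. The groups had been assembled by restraint tests in early life and by haplotype in a region of chromosome 12 (SSC12), so that behavior and haplotype cannot be told apart. The labels name no treatment, sex, litter or array batch.

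Lysine methyltransferases of the SMYD and SETD families write methyl groups onto histone tails or onto other proteins. Lysine demethylases (KDM) remove them, either with a flavin cofactor or with a Jumonji C (JmjC) domain that uses iron and 2-oxoglutarate. Lysine acetyltransferases (KAT) add acetyl groups, which loosen chromatin, while histone deacetylases (HDAC) and the NAD-dependent sirtuins (SIRT) take them off. In the brain these enzymes are known for their part in neuronal gene expression, memory and responses to stress.

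Of the family genes on the array, HDAC8 (mean 1.97) and SMYD3 (4.78) had no probe set at the required level, and KAT2A was the only gene whose symbol begins with KAT, since several acetyltransferases carry older symbols in the annotation. The lowest probe sets kept were a second one of HDAC9 (mean 5.37) and a second one of KDM6A (5.39), and the highest left out were 1 of SMYD1 (5.06) and 1 of KDM5A (5.01). None of the 66 tested probe sets fell under the mean of the array's own background probe sets on any array, a count of 0. Each gene is represented by its brightest tested probe set unless another is named. A log2 value is a level within a probe set and gives no order between genes.

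Array quality was uneven. LR replicate 3 correlated least with the rest (median r = 0.876), followed by LR replicate 2 (0.958), HR replicate 6 (0.960) and HR replicate 4 (0.965), and the remaining 16 lay above these. The mean of the 69 antigenomic probe sets, which match no pig sequence and serve as background controls, was 4.21 ± 0.13 in HR and 4.08 ± 0.15 in LR (SD, n = 10 each), ranging from 3.98 to 4.37 and from 3.71 to 4.22. It was taken from deposited, already normalized values. The numbers of the animals also followed the groups, as 9 of 10 HR animals were numbered above every LR animal. Of 10 neuronal marker genes tested, 7 were lower in HR at unadjusted p under 0.05 and 0 were higher, where 15.4% of all tested genes were lower and 14.2% higher. The other 3 neuronal markers had estimates above 0, UCHL1 (0.08), NEFH (0.09) and RBFOX3 (0.04). The mean level of that list was 9.57 to 10.1 in HR and 9.87 to 10.4 in LR. Of 6 excitatory neuron markers 3 were higher in HR (among them NEUROD2, 0.27, and NRGN, 0.20) and 0 lower. List means were 8.74 to 9.09 in HR and 8.61 to 9.11 in LR. Their estimates lay above 0 for 4 and below 0 for 2, SLC17A6 (-0.27) and NEUROD6 (-0.08). Of 8 astrocyte markers 3 were lower (among them SLC1A3, -0.31) and 1 was higher (GFAP, 0.18), at 10.6 to 10.9 and 10.7 to 11.3. Astrocyte estimates lay above 0 for 4 and below 0 for 4. Of 8 oligodendrocyte markers 3 were lower (among them UGT8, -0.59) and 0 higher, at 9.28 to 9.65 and 9.34 to 9.97. Oligodendrocyte estimates lay below 0 for 5 and above 0 for 3, CNP (0.09), MAG (0.06) and MBP (0.01). None of these markers passed adjustment, a count of 0. With background as covariate the 7 lower neuronal markers, from -0.37 to -0.17 without it, stood between -0.13 and -0.03. NEUROD2 then stood at 0.16, NRGN at 0.12, SLC1A3 at -0.17 and UGT8 at -0.29. In bulk tissue, fewer cells of a type and less RNA per cell cannot be told apart, and the part of these features in the differences below was not tested except where a value is given.

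SMYD5, a member of the SET and MYND domain family reported in other mammals to methylate histone H4 and ribosomal proteins, had the smallest p of all member genes. Its brighter probe set ranged in HR from 8.0 to 8.75 with a median of 8.31, and in LR from 7.38 to 8.47 with a median of 7.97. The 10 HR animals all lay above the LR median, but the highest LR animals lay within the HR range, so the groups overlapped. The mean was 8.32 ± 0.22 in HR and 7.95 ± 0.30 in LR (SD, n = 10 each). HR exceeded LR by 0.38 ± 0.11 (SE) on the log2 scale, a 1.3-fold difference with a 95% interval from 0.14 to 0.61. The unadjusted p was 0.003 in limma and the Benjamini-Hochberg adjusted p over all tested probe sets was 0.157, so the difference did not pass the threshold of 0.05. The study placed SMYD5 in its panel of HR and LR markers using these same animals, and the direction is therefore no independent evidence.

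The other SMYD5 probe set did not follow the first. Its values ran from 6.93 to 7.92 in HR with a median of 7.28, and from 7.30 to 7.70 in LR with a median of 7.54. The mean was 7.41 ± 0.36 in HR and 7.53 ± 0.14 in LR (SD, n = 10 each), which gave an HR minus LR difference of -0.12 ± 0.12 (SE), with p = 0.329 and an adjusted p of 0.473 in limma. Low and high HR animals lay on both sides of the whole LR range. Across the 20 arrays both SMYD5 probe sets were related with Pearson's r = -0.27 (permutation p = 0.258, adjusted p = 0.294) and Spearman's rho = -0.31 (permutation p = 0.179, adjusted p = 0.213). Among LR animals r was -0.61 and among HR animals 0.01. The mean of both probe sets therefore differed less between groups, by 0.13 on the log2 scale with an unadjusted p of 0.118 in limma.

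**Figure D1:**
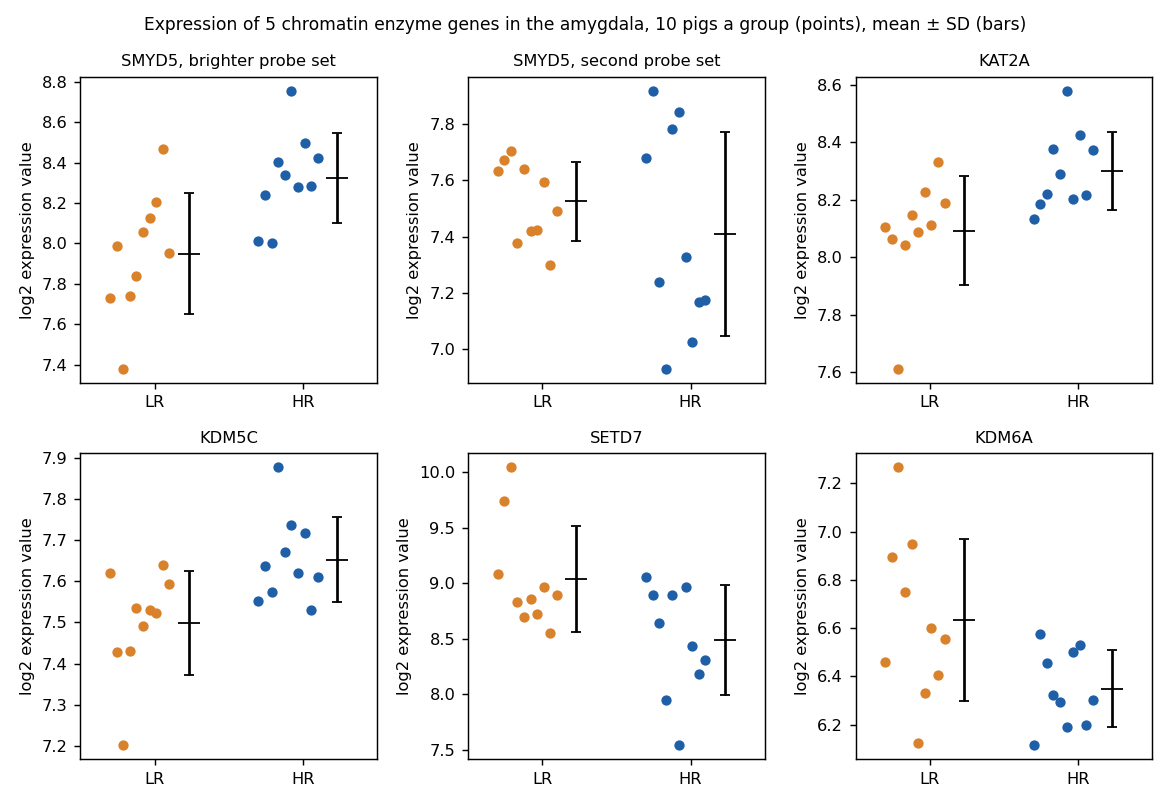
Log2 expression values (vertical axes, each with its own range) in LR and HR pigs for both SMYD5 probe sets and for KAT2A, KDM5C, SETD7 and KDM6A. Points are the 10 animals of a group and black bars the mean ± SD. All HR values of the brighter SMYD5 probe set lie above the LR median of 7.97, while the second probe set spreads in HR from 6.93 to 7.92, and in every panel the groups overlap.

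SMYD5 values moved with array background. The brighter probe set followed the background mean over 20 arrays with r = 0.67 (permutation p = 0.00147, adjusted p = 0.0043) and rho = 0.55 (permutation p = 0.0126, adjusted p = 0.023), where adjustment covered 82 tests. When the 2 arrays most distant from the median background were left out (LR replicate 3 and HR replicate 4), r was 0.45. It was 0.61 among LR and 0.52 among HR animals. The second probe set ran the opposite way, with r = -0.50 (permutation p = 0.0218, adjusted p = 0.036) and rho = -0.56 (permutation p = 0.0113, adjusted p = 0.022). When the background mean entered the limma model, the HR minus LR difference of the brighter probe set was 0.23 ± 0.11 (SE, unadjusted p = 0.038) and that of the second was 0.00 ± 0.12 (SE). The difference of the brighter probe set was 0.31 without LR replicate 3 (unadjusted p = 0.005), 0.24 without the 4 arrays of lowest correlation (unadjusted p = 0.027) and 0.18 with animal number as covariate (unadjusted p = 0.186).

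**Figure D2:**
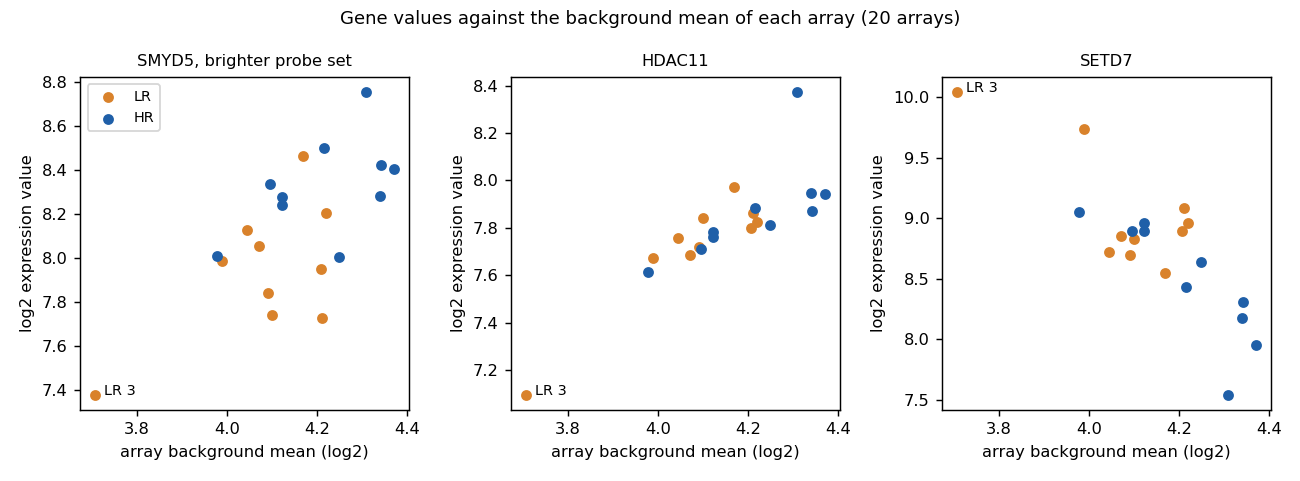
Log2 expression of the brighter SMYD5 probe set, HDAC11 and SETD7 (vertical axes) against the background mean of each array (horizontal axis, log2), 20 arrays colored by group. SMYD5 (r = 0.67) and HDAC11 (r = 0.84) are higher on arrays of higher background, SETD7 (r = -0.84) is lower, and LR replicate 3 lies at the far left.

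Across all member probe sets, 0 of 66 passed an adjusted p of 0.05, against 2 of 23860 probe sets tested (0.00838%). The lowest adjusted p of a member was 0.157. At unadjusted p under 0.05 there were 20 of 66 member probe sets (30.3%), against 26.3% of all tested probe sets. By gene, 11 of 39 members (28.2%) reached unadjusted p under 0.05, against 29.6% of all tested genes, which is a share near the background. Of these, 7 were higher in HR (14.2% of all genes were) and 4 were higher in LR (15.4% of all genes). The median HR minus LR difference was 0.07 over member genes and 0.05 over all tested genes, and 59.0% of members and 58.1% of all genes lay above 0. Without LR replicate 3 these medians were 0.03 and 0.016, with 56.4% and 53.7% above 0. With background as covariate they were -0.00015 and 0.0017, with 48.7% and 50.7% above 0. For no member gene did the groups separate completely, a count of 0 of 39. The share over all tested genes was not counted, so this describes the members only.

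These counts depended on single arrays and on background. Without LR replicate 3, 8 of 39 genes reached unadjusted p under 0.05 (20.5%), all 8 among the 11 above, against 20.5% of all genes. Of them 5 were higher in HR (9.04% of all genes) and 3 higher in LR (11.4%). Without the 4 arrays of lowest correlation, SMYD5 alone remained, 1 of 39 (2.56%) against 5.67% of all genes. With the background mean as covariate it was again SMYD5 alone, 1 of 39 against 3.98%, and with animal number as covariate 0 of 39 against 3.7%. SMYD5 was thus the only member gene with unadjusted p under 0.05 in every one of these fits except that with animal number. With the first principal component of the arrays as covariate, its unadjusted p in limma was 0.069. The adjusted p of SMYD5 ranged from 0.101 to 0.9997 over 31 alternative settings.

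**Figure D3:**
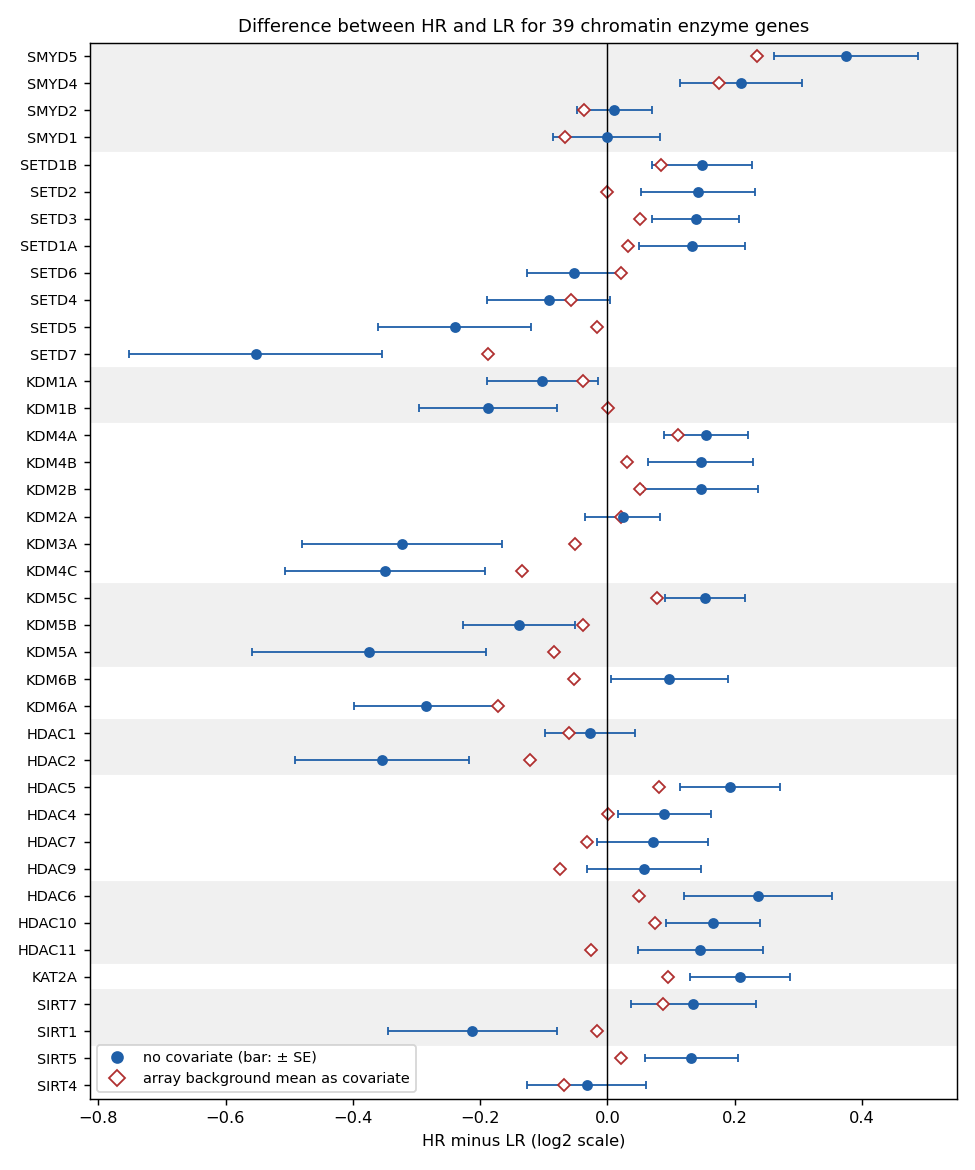
HR minus LR on the log2 scale (horizontal axis) for the 39 genes, grouped by enzyme class in shaded and unshaded bands. Blue circles with bars show the limma estimate ± SE without covariates, and open red diamonds the estimate with array background as covariate. Estimates run from -0.55 for SETD7 to 0.38 for SMYD5, and most diamonds lie closer to 0 than the circles.

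Among the other methyltransferases of the SMYD family, SMYD4 was higher in HR by 0.21 ± 0.10 (SE, p = 0.038, adjusted p = 0.177 in limma). Its values ran from 6.03 to 6.90 in HR (median 6.60) and from 6.12 to 6.57 in LR (median 6.37), so that HR held both the lowest and the highest animals. SMYD2, which methylates p53 and histone H3, differed by 0.01 ± 0.06 (SE) in its brightest probe set (-0.02 without LR replicate 3) and by 0.17 ± 0.07 (SE, p = 0.027, adjusted p = 0.168) in its second. The muscle gene SMYD1 differed by 0.00 ± 0.08 (SE).

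Of 8 SETD genes, 1 reached unadjusted p under 0.05 in either direction. SETD7, which adds a single methyl group to lysine 4 of histone H3 and also acts on other proteins, ran from 7.54 to 9.06 in HR (median 8.54) and from 8.55 to 10.04 in LR (median 8.88). LR replicates 3 and 2 stood above all the rest, and HR replicate 6 was lowest. The difference was -0.55 ± 0.20 (SE), or 0.68-fold (p = 0.011, adjusted p = 0.157 in limma), and it was -0.15 without the 4 arrays of lowest correlation and -0.19 with background as covariate. SETD5, whose loss causes intellectual disability in humans, differed by -0.24 ± 0.12 (SE, p = 0.058) in its brightest probe set and by 0.12, -0.16 and -0.16 in its other probe sets. SETD2, which trimethylates lysine 36 of histone H3, differed by 0.14 in one probe set and -0.14 in the other. SETD1A (0.13) and SETD1B (0.15), catalytic subunits of the COMPASS complexes that methylate lysine 4, and SETD3 (0.14), an actin histidine methyltransferase, lay above 0, each with unadjusted p above 0.05. Without LR replicate 3 SETD1A stood at 0.07. SETD6 differed by -0.05 and -0.16 in its 2 probe sets.

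Paralogues among the demethylases had estimates in both directions. KDM4A, which acts on lysines 9 and 36 of histone H3, was 0.16 ± 0.07 (SE) higher in HR (p = 0.027, adjusted p = 0.168), with 0.10 in its second probe set, and KDM4B differed by 0.15 ± 0.08 (SE, p = 0.088), with 0.13 and 0.15 in its others. Without LR replicate 3 the brightest probe set of KDM4B stood at 0.08. KDM2A differed by 0.02 and 0.08 in its 2 probe sets. KDM4C was lower in HR by -0.35 ± 0.16 (SE, p = 0.037, adjusted p = 0.176), and a second probe set gave -0.35 too. Its values ran from 5.80 to 6.62 in HR (median 6.31) and from 5.93 to 7.39 in LR (median 6.52), the highest being LR replicate 2. KDM3A, a lysine 9 demethylase, differed by -0.32 ± 0.16 (SE, p = 0.051). Without LR replicate 3 the brightest probe set of KDM4C stood at -0.27 (unadjusted p = 0.079 in limma) and KDM3A at -0.22. With background as covariate KDM4A stood at 0.11, KDM4C at -0.13 and KDM3A at -0.05.

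The demethylases of lysine 4 also had estimates on both sides of 0. KDM5C, an X-linked gene with a known role in human intellectual disability, ran from 7.53 to 7.88 in HR (median 7.63) and from 7.20 to 7.64 in LR (median 7.53). All 10 HR animals lay above the LR median, and the difference was 0.15 ± 0.06 (SE, p = 0.022, adjusted p = 0.164 in limma), with 0.17 and 0.10 in its other probe sets. KDM5A differed by -0.37 ± 0.18 (SE, p = 0.054), where each of the 10 HR values was under the median of LR and LR replicate 3 reached 8.12. It stood at -0.24 without that array, and its second probe set differed by -0.30 ± 0.14 (SE, p = 0.042, adjusted p = 0.180). KDM5B differed by -0.14 ± 0.09 (SE, p = 0.128). With background as covariate the brightest probe sets of KDM5C, KDM5A and KDM5B stood at 0.08, -0.08 and -0.04.

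KDM6A and KDM6B both remove methyl groups from lysine 27 of histone H3. KDM6A, which is X-linked, ran from 6.12 to 6.58 in HR (median 6.31) and from 6.12 to 7.27 in LR (median 6.58), and the HR values were all under the median of LR. It differed by -0.28 ± 0.11 (SE, p = 0.019, adjusted p = 0.163), and by -0.51 ± 0.20 (SE) in its second probe set. With background as covariate these were -0.17 and -0.24. KDM6B differed by 0.10 ± 0.09 (SE, p = 0.301) in one probe set (0.06 without LR replicate 3) and by 0.20 ± 0.07 (SE, p = 0.008, adjusted p = 0.157) in another of almost the same brightness. The flavin-dependent KDM1A, a partner of the CoREST repressor complex, differed by -0.10, -0.22 and 0.02 in its 3 probe sets, and its relative KDM1B by -0.19 ± 0.11 (SE, p = 0.098), or by -0.12 without LR replicate 3.

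Deacetylases were arranged by class. HDAC2, a class I enzyme of the nuclear repressor complexes that is known for restraining memory formation in mice, ran from 6.50 to 7.58 in HR (median 7.19) and from 7.15 to 8.46 in LR (median 7.42). HR replicate 6 was far below and LR replicate 3 far above the rest. HDAC2 differed by -0.35 ± 0.14 (SE, p = 0.017, adjusted p = 0.160 in limma), by -0.25 without LR replicate 3 and by -0.12 with background as covariate. HDAC1, its closest paralogue, differed by -0.03 ± 0.07 (SE).

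All 4 class IIa genes had estimates above 0. These enzymes shuttle between nucleus and cytoplasm with neuronal activity. HDAC5 ran from 8.33 to 8.71 in HR (median 8.43) and from 7.78 to 8.53 in LR (median 8.27), with all 10 HR animals above the LR median. It differed by 0.19 ± 0.08 (SE, p = 0.023, adjusted p = 0.164), and HDAC4, HDAC7 and HDAC9 by 0.09, 0.07 and 0.06 in their brightest probe sets, each with unadjusted p above 0.05. Without LR replicate 3 these were 0.05, 0.02 and 0.03. A second HDAC7 probe set differed by 0.17 ± 0.08 (SE, p = 0.044, adjusted p = 0.184), with each of the 10 HR values over the LR median, and the remaining one by 0.07. The others of HDAC4 differed by 0.12 and 0.14, and the other of HDAC9 by 0.08. With background as covariate the brightest probe sets of HDAC7 and HDAC9 were below 0 (-0.03 and -0.07).

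The 3 genes of classes IIb and IV also had estimates above 0. HDAC10 differed by 0.17 ± 0.07 (SE, p = 0.035, adjusted p = 0.176). HDAC6, an X-linked deacetylase of tubulin in the cytoplasm, differed by 0.24 ± 0.12 (SE, p = 0.055), 0.20 ± 0.08 (SE, p = 0.020) and 0.16 ± 0.08 (SE, p = 0.062) in its 3 probe sets. Its brightest probe set was as low as 6.83 on LR replicate 3, against 7.55 on the next LR array, and its difference was 0.14 without that array and 0.05 with background as covariate. HDAC11 differed by 0.15 ± 0.10 (SE, p = 0.149), by 0.08 without LR replicate 3 and by -0.03 with background as covariate, and its second probe set differed by 0.12 ± 0.08 (SE).

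KAT2A, the GCN5 acetyltransferase of the SAGA and ATAC coactivator complexes, was the family's only acetyltransferase here. It ran from 8.13 to 8.58 in HR (median 8.26) and from 7.61 to 8.33 in LR (median 8.11), with all 10 HR animals above the LR median. The difference was 0.21 ± 0.08 (SE, p = 0.014, adjusted p = 0.157 in limma), 0.16 without LR replicate 3 and 0.09 with background as covariate. No sirtuin reached unadjusted p under 0.05, a count of 0 of 4. SIRT1, a nuclear deacetylase, differed by -0.21 ± 0.13 (SE), or by -0.10 without LR replicate 3 (unadjusted p = 0.280). SIRT7 differed by 0.14 ± 0.10 (SE), and the mitochondrial SIRT4 and SIRT5 by -0.03 ± 0.09 (SE) and 0.13 ± 0.07 (SE).

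Where a gene had several tested probe sets, they did not always run together. Of 19 such genes, 15 had estimates of 1 sign in all probe sets, and KDM1A, SETD2, SETD5 and SMYD5 had both signs. The remaining 20 genes had 1 tested probe set each. The array annotation does not say which transcripts a probe set reads, so what sets the probe sets of a gene apart was not tested.

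Correlations of members with array background had both signs. Over 20 arrays, 26 genes had a positive and 13 a negative correlation with the background mean, from -0.87 for SETD5 to 0.84 for HDAC11. Adjusted over 82 tests, Pearson's r passed 0.05 for 30 genes and Spearman's rho for 18, and both passed for 11 positive and 7 negative genes. An absolute r of 0.7 or more was found in 46.2% of members and 36.6% of all tested genes. The sign of r equalled that of the HR minus LR difference in 36 of 39 genes, and it was unchanged without LR replicate 3 and HR replicate 4 in 35. A share over all tested genes was counted only for the absolute r of 0.7. The other counts therefore describe the members alone. Genes of 1 family stood on both sides, KDM4B (0.75) against KDM4C (-0.68), KDM5C (0.76) against KDM5A (-0.74), KDM6B (0.79) against KDM6A (-0.58) and HDAC5 (0.78) against HDAC2 (-0.81). These correlations share arrays with the group comparison, and background and group run together in them.

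**Figure D4:**
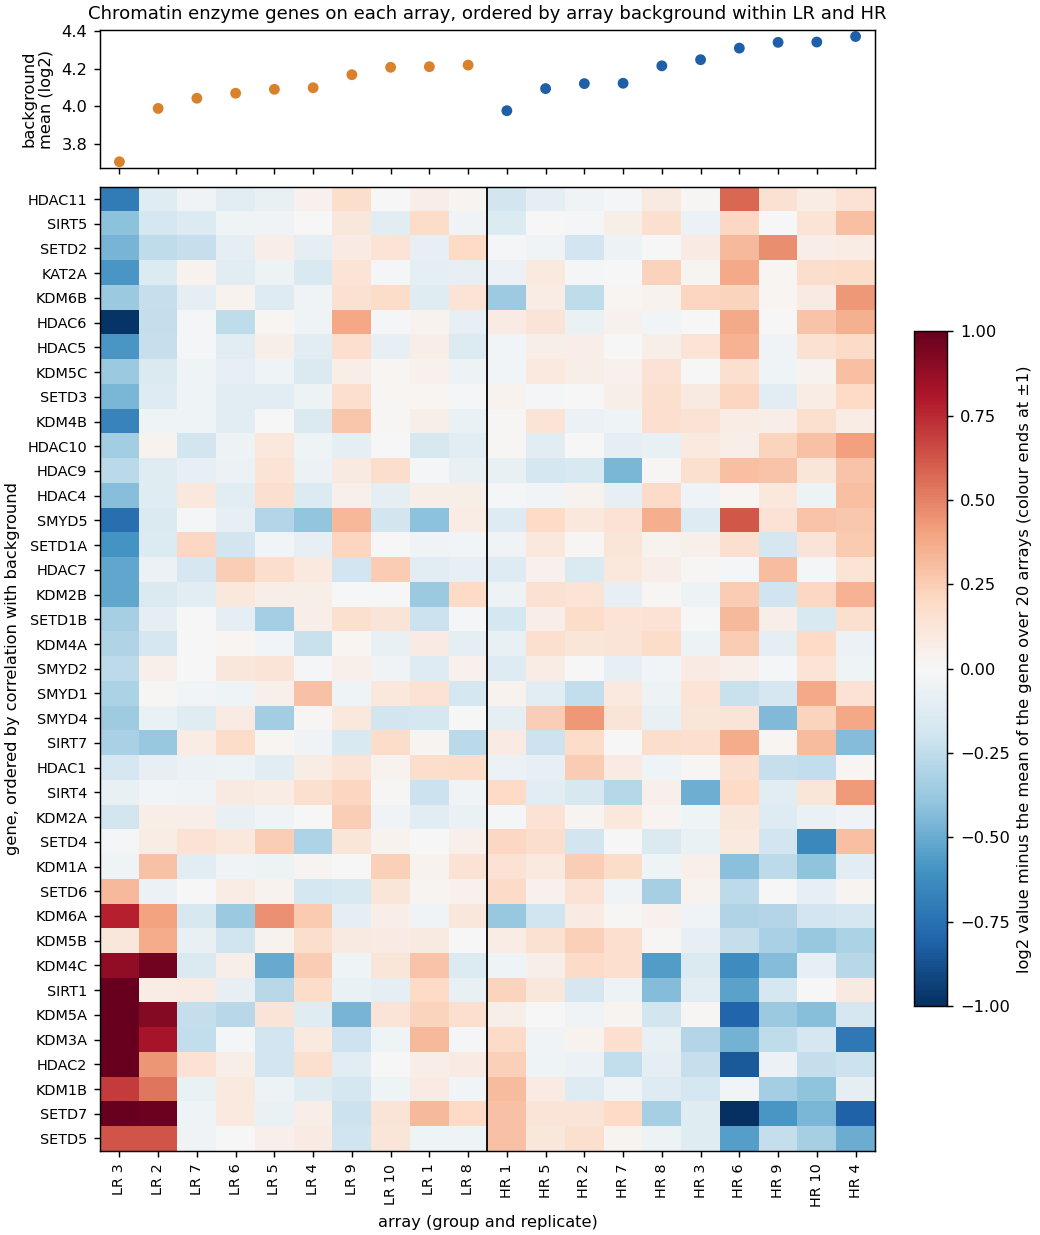
Log2 value minus the gene's mean over 20 arrays (color, ending at ±1) for 39 genes in rows, ordered by correlation with background, and arrays in columns, ordered by background within LR and HR. The upper panel shows the background mean (log2) of each array. LR replicate 3 is low for the upper genes and high for the lower ones, and HR replicate 6 is the reverse for many genes.

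Single arrays held most extremes. LR replicate 3 was the lowest array for 20 of the 39 genes and the highest for 9, together 29 (74.4%), against 68.5% of all tested genes. HR replicate 6 was lowest or highest for 16 genes (41.0%, against 34.1% of all genes) and HR replicate 4 for 11 (28.2%, against 17.5%). The SD was larger in LR for 24 of 39 genes, and half-widths of the 95% intervals of the difference ran from 0.12 to 0.41.

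Other parts of the same machinery were read from lists of further enzymes and partners, and 0 of their genes passed adjustment. Counts below are at unadjusted p under 0.05, which 14.2% of all tested genes reached with higher values in HR and 15.4% with higher values in LR. Among 16 other histone methyltransferases, 5 were higher in HR and 0 in LR, the foremost being the arginine methyltransferases PRMT8 (0.25 ± 0.10, SE), PRMT7 (0.21 ± 0.08, SE) and PRMT5 (0.20 ± 0.08, SE). With background as covariate they stood at 0.12, 0.10 and 0.12. Among 7 other acetyltransferases, 0 were higher in HR and 2 in LR, namely the circadian activator CLOCK (-0.46 ± 0.19, SE) and the coactivator NCOA3 (-0.35 ± 0.13, SE). CLOCK stood at -0.28 without LR replicate 3 and at -0.11 with background as covariate, and NCOA3 at -0.28 and -0.12. Of 8 COMPASS subunits, 1 was higher in HR (HCFC1, 0.19, and 0.13 without LR replicate 3) and 1 in LR (RBBP5, -0.27). With background as covariate they stood at 0.09 and -0.08. Of 5 other demethylases and 2 acetyltransferases under older symbols, 0 reached unadjusted p under 0.05.

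Complex partners of KAT2A and of the deacetylases had estimates in both directions. The shares of all tested genes at unadjusted p under 0.05 were again 14.2% higher in HR and 15.4% higher in LR. Of 27 acetyltransferase complex subunits, 5 were higher in HR and 6 in LR, with MCRS1 at 0.26, TADA1 at -0.32 and EPC1 at -0.38, or 0.16, -0.17 and -0.14 with background as covariate. Of 23 corepressor subunits, 4 were higher in HR and 6 in LR. Corepressor estimates lay above 0 for 10 and below 0 for 13. Their foremost genes were CHD3 (0.20 ± 0.06, SE), MTA1 (0.22 ± 0.08, SE) and the histone chaperone RBBP4 (-0.41 ± 0.13, SE). CHD4 (-0.20), MBD2 (-0.24) and RBBP7 (-0.26) were also lower in HR, so members of the NuRD complex lay on both sides of 0. With background as covariate CHD3 stood at 0.14, MTA1 at 0.10 and RBBP4 at -0.24. Among 10 partners of class IIa deacetylases, the 14-3-3 protein gene YWHAB was lower in HR (-0.20 ± 0.09, SE, and -0.03 with background as covariate). Of 9 genes that supply cofactors, 0 were higher in HR and 3 in LR. Cofactor estimates lay above 0 for 6 and below 0 for 3, with a median of 0.07. Among those above 0 were AHCY (0.21), NMNAT3 (0.17) and NMNAT2 (0.03). NAMPT (-0.31 ± 0.14, SE) and NMNAT1 (-0.28 ± 0.08, SE) make NAD, the substrate of sirtuins, and MAT2B (-0.17 ± 0.08, SE) helps make the methyl donor. With background as covariate NMNAT1 stood at -0.32, NAMPT at -0.04 and MAT2B at -0.04. Without LR replicate 3 NAMPT stood at -0.19.

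The 5 members HDAC5, KAT2A, SIRT7, SMYD4 and KDM6B lie on SSC12 according to RefSeq (assembly Sscrofa11.1, consulted for gene order only). None, a count of 0, lies between METTL16 and ATP1B2, genes that the study places in the coping-associated region of that chromosome. The bounds of the region were not available, so whether SMYD4 and KDM6B lie in it was not determined. SMYD4 lies 12 protein-coding genes before METTL16, and KDM6B lies 5 past ATP1B2. SMYD5 is not on SSC12.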

How the data were processed

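Total RNA of 20 amygdala samples was hybridised to Affymetrix porcine Snowball arrays. The authors deposited log2 values, background corrected, quantile normalized and summarised per probe set by the robust multichip average. The submitters' processing notes name GCOS 1.1.1. The table held 47845 probe sets (123 controls), with array medians from 5.14 to 5.22 and values from 0.49 to 14.3, and 26426 had a gene symbol. The detection filter of the study was not applied in this table, and probe sets with means of 5.18 or more were tested here. Arrays give no depth, so their number limits precision.

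The HR minus LR difference was fitted by lmFit and eBayes (limma 3.58.1, R 4.3.3) with group as the only term, tested 2-sided and adjusted by Benjamini-Hochberg over 23860 probe sets. The code was tested on simulated data. Correlations used 100000 resamples in 2-sided permutation tests. Labels gave no pairing. The p-values set each difference against the spread between these animals. Without a covariate they take no account of background or animal number, which ran with the group.

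Named genes were all SMYD5 probe sets and the 10 member genes with the smallest p in each direction. To these were added 2 per enzyme class and up to 3 in each pathway list. Second probe sets of members are given beside them. Marker lists are described for neurons, excitatory neurons, astrocytes and oligodendrocytes only. Lists for further cell types, among them inhibitory neurons, oligodendrocyte precursors, microglia and endothelial cells, were read but are not described. Members and lists were chosen with earlier results of these data known. Alternatives changed the filter, the scaling, the variance estimate, the weighting of arrays, the covariates, the choice of probe set and the arrays included. Removal of the 4 arrays of lowest correlation was chosen after seeing the data.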

Additional observations from a re-analysis of the deposited data

Results flagged for a closer look

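In 56 groups of 10 animals, covering the named member genes, 9 held an animal whose gap to its neighbour was a large share of the group's range (Dixon's 95% criterion), where chance gives about 1 in 20, or 3. LR replicate 3 accounted for 8 of the 9. It was lowest in LR for HDAC4 (6.83, next 7.12), HDAC5 (7.78, next 8.13), HDAC6 (6.83, next 7.55), KAT2A (7.61, next 8.04), KDM5C (7.20, next 7.43) and SETD3 (9.88, next 10.2), and highest for HDAC2 (8.46, next 7.78) and SIRT1 (7.498, next 6.59). HR replicate 6 was lowest in HR for HDAC2 (6.50, next 7.09). LR replicate 3 also had the lowest background mean (3.71) and the lowest correlation with other arrays (0.876), and the part of these in its values was not tested.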

How the results depend on the processing

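For 27 named genes, 826 values under other settings gave 812 of unchanged direction and 14 of opposite sign. With 0 member probe sets past adjustment in any setting, the side of the threshold did not vary. Of the 31 settings 20 left out a single array, and a smaller estimate of the same sign was counted as unchanged. Opposite signs came with the first component as covariate for HDAC4 (-0.018), HDAC6 (-0.015), KDM1B (0.027), KDM3A (0.043), KDM5A (0.050), KDM6B (-0.065), SETD5 (0.019) and SIRT1 (0.053), with background for KDM1B (0.0012) and KDM6B (-0.053), with animal number for HDAC1 (0.011) and KDM6B (-0.044), without the 4 arrays of lowest correlation for KDM6B (-0.036), and without HR replicate 3 for SIRT4 (0.020, range -0.081 to 0.020 over single arrays left out). Members outside the 27 genes turned too. Among them were HDAC7 (-0.032), HDAC9 (-0.075), HDAC11 (-0.025) and SETD6 (0.022) with background, and SMYD2 (-0.018) without LR replicate 3. The cause was not tested. Member genes with unadjusted p under 0.05, 11 without covariates, numbered 7 with array weights, 1 without the 4 arrays, 1 with background and 0 with animal number or with the first component, and 8 to 18 when 1 array was left out, with 18 without LR replicate 9, 17 without HR replicate 1 and 8 without LR replicate 3. All tested probe sets past adjustment, 2 in the comparison above, numbered 1 with no filter, 1 with the filter at the 75th percentile, 5 with array weights, 1 without the 4 arrays, 1 with background and 0 with animal number, and 0 to 7 when 1 array was left out, with 7 without HR replicate 1. SMYD5 kept its direction in all 31 settings (0.13 to 0.43) and unadjusted p under 0.05 in 28, the exceptions being animal number, the first component and the mean over probe sets. Repeated quantile normalization and median centring turned 0 of the named genes, with SMYD5 at 0.40 and 0.39. No paired analysis was possible because replicate numbers only follow accession order.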
